A study of Homo sapiens with 18 samples.

Results

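The nuclear genes for mitochondrial ribosomal proteins were followed across 18 poly(A) RNA sequencing libraries. All were made from A549, a human cell line long established from a lung adenocarcinoma. They were chosen by name, as MRPL or MRPS followed by a number and at most 1 letter from A to D, with a mean deposited RPKM (a read level per exon length and library size) of 1 or more over the 18 libraries. All 78 genes of the 44016 in the table that matched the name also passed the level, so none lay just outside it, and all 78 passed the filter on low counts. The lowest was MRPL42, at a mean of 1.53 RPKM. By symbol, 49 are MRPL and 29 are MRPS genes.

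The libraries form 6 groups of 3 biological replicates. They are untreated wild type (WT), WT given 100 µM H2O2 for 2 h, an untreated stable S100A16 knockdown (KD), the same KD given 100 µM H2O2 for 2 h, an untreated stable hnRNPM KD and an untreated stable MagoHB KD. S100A16 belongs to the S100 proteins, which bind calcium. hnRNPM regulates splicing, and MagoHB sits in the core of the exon junction complex. The series title states its subject as alternative splicing mediated by S100A16 under oxidative stress. Every KD was set against WT cells, since the groups include no vector-only line. The sources used here do not say how the KDs were made or whether each is 1 clone.

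The mitoribosome makes the few proteins encoded by mitochondrial DNA, which are core subunits of the respiratory chain and ATP synthase. Its rRNAs come from the mitochondrial genome, whereas all its proteins are encoded in the nucleus, made in the cytosol and imported. Many of these proteins have a homologue in the bacterial ribosome, and the others were gained in the mitochondrial lineage. Of the 78 genes, 51 encode large subunit proteins (30 with a bacterial homologue and 21 specific to mitochondria) and 26 encode small subunit proteins (16 and 10). MRPS18A and MRPS30 are counted with the large subunit, where their proteins sit. The remaining gene, MRPS36, carries the name but encodes a component of the 2-oxoglutarate dehydrogenase complex. Another 5 subunits have a symbol outside the name pattern and are not among the 78.

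The promoters of 3 of the genes whose level changed most, MRPL33, MRPS33 and MRPL28, and of 2 genes whose window holds both a GABPA and a YY1 motif, MRPS12 and MRPL47, are shown here. MRPS12 and MRPL47 were picked among such genes by the lowest log2 fold change in the untreated S100A16 KD. Genes on an excluded chromosome were not considered for that pick. Each window is the RefSeq sequence (GRCh38.p14) from 250 bases before to 50 after the annotated start, printed on the gene's strand. The windows lie at chr2:27771469-27771768 (plus strand) for MRPL33, chr7:141014903-141015202 (minus) for MRPS33 and chr16:370489-370788 (minus) for MRPL28. Those of MRPS12 and MRPL47 lie at chr19:38930694-38930993 (plus) and chr3:179604597-179604896 (minus). Capitals mark matches, on either strand, to the GABPA (ETS) motif CCGGAAG, the YY1 motif AAGATGGC, the GC box GGGCGG or the CCAAT box.
MRPL33: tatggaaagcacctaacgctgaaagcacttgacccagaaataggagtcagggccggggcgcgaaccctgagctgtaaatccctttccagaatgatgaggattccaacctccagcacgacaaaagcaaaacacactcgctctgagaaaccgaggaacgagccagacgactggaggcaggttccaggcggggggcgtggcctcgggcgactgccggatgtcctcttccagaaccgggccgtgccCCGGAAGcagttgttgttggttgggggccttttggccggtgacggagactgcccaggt
MRPS33: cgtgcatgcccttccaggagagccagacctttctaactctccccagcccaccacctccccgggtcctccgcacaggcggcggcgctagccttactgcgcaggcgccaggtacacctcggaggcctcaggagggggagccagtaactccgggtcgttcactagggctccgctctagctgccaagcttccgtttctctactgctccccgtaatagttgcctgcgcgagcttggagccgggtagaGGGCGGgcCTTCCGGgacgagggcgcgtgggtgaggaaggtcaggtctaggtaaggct
MRPL28: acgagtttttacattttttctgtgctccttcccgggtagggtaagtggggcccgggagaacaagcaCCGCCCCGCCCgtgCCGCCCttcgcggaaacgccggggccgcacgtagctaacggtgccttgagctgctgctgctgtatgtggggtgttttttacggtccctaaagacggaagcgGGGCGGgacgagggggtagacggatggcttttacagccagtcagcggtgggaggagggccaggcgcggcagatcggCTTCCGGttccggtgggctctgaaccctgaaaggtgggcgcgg
MRPS12: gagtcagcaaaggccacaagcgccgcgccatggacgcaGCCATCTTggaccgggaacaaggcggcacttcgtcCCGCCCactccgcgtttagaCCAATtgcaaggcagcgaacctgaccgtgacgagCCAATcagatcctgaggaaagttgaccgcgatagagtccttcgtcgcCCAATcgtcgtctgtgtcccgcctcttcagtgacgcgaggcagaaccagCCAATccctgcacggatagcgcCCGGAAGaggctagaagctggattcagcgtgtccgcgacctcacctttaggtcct
MRPL47: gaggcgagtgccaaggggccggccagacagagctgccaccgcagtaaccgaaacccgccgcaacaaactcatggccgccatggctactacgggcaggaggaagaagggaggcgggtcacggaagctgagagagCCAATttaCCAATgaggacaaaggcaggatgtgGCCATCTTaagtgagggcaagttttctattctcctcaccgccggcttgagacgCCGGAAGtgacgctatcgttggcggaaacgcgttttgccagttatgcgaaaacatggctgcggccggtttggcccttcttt

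RefSeq windows matched 70 of the 78 genes, with 86 windows in all where a gene has several starts. The GABPA (ETS) letters were present in 38.4% of these windows, against 10.3% of all 35116 windows of the same length. ETS factors of the GABP family are known activators of nuclear genes for mitochondrial proteins. The YY1 letters were present in 26.7% of the windows, against 2.89% of all. YY1 is a zinc finger factor known to bind near the start of many housekeeping genes. Both were present in 11.6% of the windows and in 0.555% of all, and the AAG that ends the first motif can also be the AAG that begins the second. The GC box GGGCGG was found in 60.5% against 45%, CCAAT in 32.6% against 34.6%, the NRF1 letters GCATGCGC in 6.98% against 3.05%, the E-box CACGTG in 11.6% against 7.26% and the CREB letters TGACGT in 9.3% against 7.98%. The last 2 motifs can share TG. The median GC content was 60.3% in the windows of these genes and 58.7% in all windows. These matches describe letters in a window and were not tested as binding sites.

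A start on the opposite strand within 1000 bases was found for 30 of the 70 matched genes (42.9%), against 24.3% of 27305 genes. Which start lay upstream was not checked, so genes running toward each other can be counted beside those running apart. MRPS12 has such a neighbour in SARS2, which encodes the mitochondrial seryl-tRNA synthetase, and MRPL46 has MRPS11, with starts 320 bases apart. That was the only such pair in which both genes were members.

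The total counts per library ranged from 36612997 to 51406431. The knocked-down genes checked the labels. S100A16 stood at 119 ± 1.8 CPM (counts relative to library size, scaled by the TMM method; mean ± SD, n = 3) in untreated WT and 8.43 ± 0.58 in its untreated KD. HNRNPM fell from 1770 ± 31 to 368 ± 76 CPM in its KD and MAGOHB from 150 ± 5.3 to 52.1 ± 13 in its own. The KDs were not separate in these 3 genes: S100A16 stood at 60.6 ± 11 CPM in the MagoHB KD and MAGOHB at 66.4 ± 11 in the hnRNPM KD. In the untreated S100A16 KD, HNRNPM was at 1190 ± 32 CPM and MAGOHB at 97.3 ± 2.9. HNRNPM was at 1420 ± 240 CPM in the MagoHB KD, and S100A16 at 121 ± 16 in the hnRNPM KD. Of the epithelial genes, KRT8 and KRT18 were at 1280 CPM or more in every library, KRT7 at 218 to 847, CDH1 at 14 to 103 and EPCAM at only 2.09 to 6.57. Of the fibroblast genes, COL1A1 stood at 12.3 to 47.7 CPM, COL1A2 at 2.21 to 5.35 and DCN at no more than 0.522. The leukocyte genes PTPRC and CD3E and the endothelial genes PECAM1 and VWF did not pass 0.55 CPM, and CD3E was at 0 in 15 of the 18. Counts of calls are also given without S100A16 KD untreated replicate 1, hnRNPM KD replicate 3 and MagoHB KD replicate 2, which stood apart from their groups in earlier results over all genes.

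Levels per length differed widely among the genes. MRPS34, which encodes a small subunit protein specific to mitochondria, was the most abundant, with a mean of 94.1 RPKM (62.7 to 122 over the 18 libraries). It was followed by MRPL12, a stalk protein of the large subunit, at 67.8 RPKM (48.8 to 93.3), and by MRPS26, MRPS35 and MRPS9 at 61.8, 61.6 and 60.5. At the low end, MRPL55, MRPL23, MRPS30 and MRPL57 followed MRPL42 upward, at 2.14, 2.58, 2.87 and 3.02 RPKM. The median gene was at 12.3 RPKM, 8 genes were above 50 and 10 were below 5. MRPL42 was counted over 16393 bases of exon, the most of any of the 78, against a median of 2501.

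**Figure D1:**
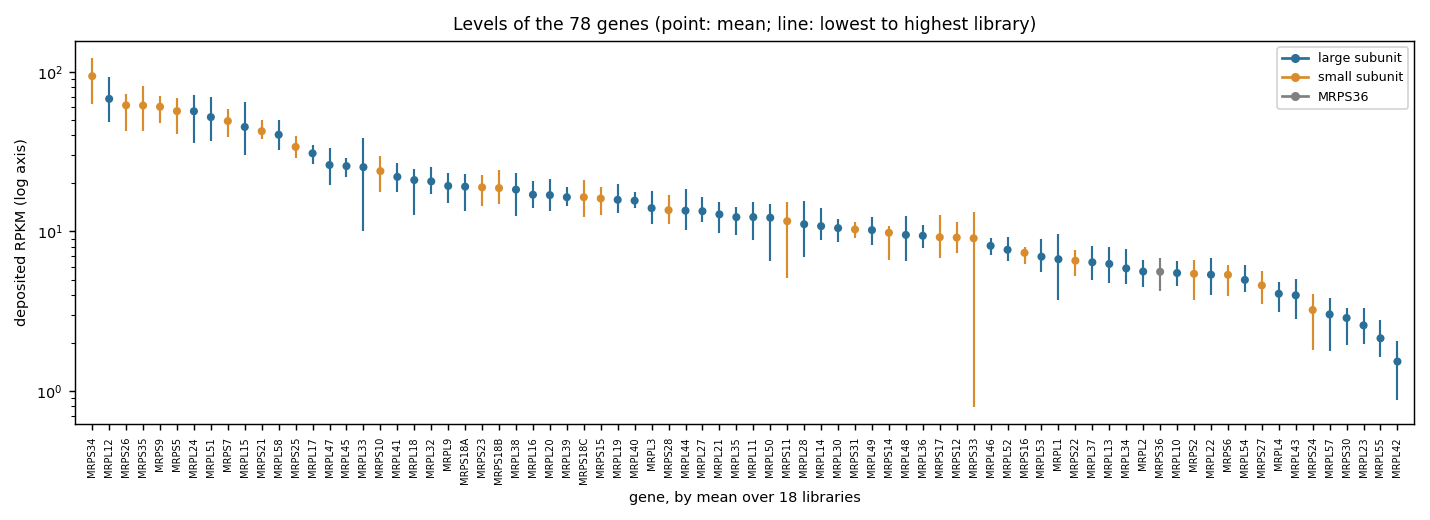
Deposited RPKM (log axis) of the 78 genes, ordered by their mean over 18 libraries; points are means and lines run from the lowest to the highest library. MRPS34 is highest at 94.1 and MRPL42 lowest at 1.53, and the long lines belong to MRPS33 and MRPL33.

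Spread across the 18 libraries also differed. MRPS33 and MRPL33 varied most, with coefficients of variation of CPM of 41.9% and 40.8%, followed by MRPL15 at 34.2% and MRPL28 at 32.7%. MRPL46, MRPL17, MRPL45 and MRPL30 varied least, at 7.35%, 8.85%, 8.86% and 9.59%. The median over the genes was 19.1%.

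The summed CPM of the 78 genes was 4374, 4371 and 4343 in the untreated WT libraries and 4512, 4328 and 4601 in WT under H2O2. It was 3044, 3092 and 3039 in the untreated S100A16 KD and 3236, 3308 and 3263 in that KD under H2O2. The hnRNPM KD libraries held 3579, 3544 and 3068, and the MagoHB KD libraries 3645, 2951 and 3417. All 12 KD libraries lay below all 6 WT libraries. As a share of all counts, with no TMM scaling, the genes took 0.399% ± 0.0032 (SD, n = 3) in untreated WT and 0.33% ± 0.0051 in the untreated S100A16 KD. The hnRNPM KD had 0.336% ± 0.021 and the MagoHB KD 0.352% ± 0.026. hnRNPM KD replicate 3 and MagoHB KD replicate 2 were the lowest of their groups. In bulk libraries, less RNA per cell and fewer cells holding it cannot be told apart.

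**Figure D2:**
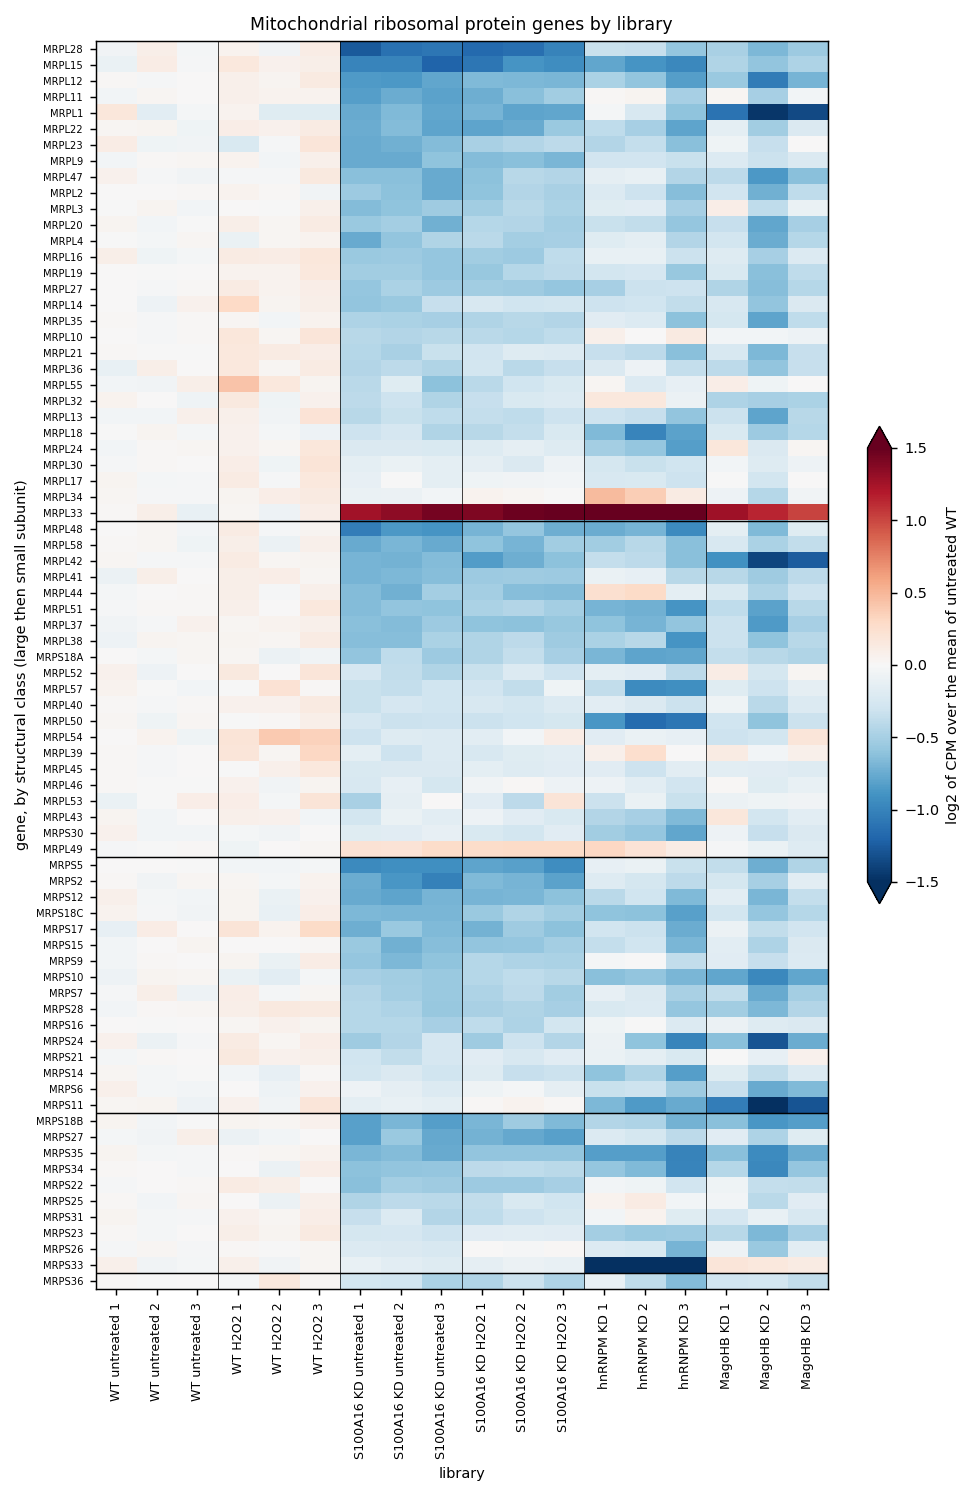
Log2 of the CPM of each gene (rows, by structural class, large then small subunit) in each of the 18 libraries (columns), over its mean in untreated WT; the colour scale ends at 1.5 in both directions. Most rows are below WT in the 12 KD libraries, MRPL33 is above it in all of them, and MRPS33 is far below it only in the 3 hnRNPM KD libraries.

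Whether H2O2 changed these genes within 2 h was asked in WT and in the S100A16 KD. In WT, edgeR's quasi-likelihood test with Benjamini-Hochberg adjustment over all 22382 genes tested called 0 of the 78 in either direction, where 0.147% of all genes were called higher and 0.076% lower. The median log2 fold change of the 78 was 0.05 (range -0.10 to 0.31), against 0.00 for all genes, and 65 of the 78 were above 0. At an unadjusted p under 0.05, 2 genes passed, MRPL54 at 0.31 ± 0.12 (SE; adjusted p = 0.61) and MRPL39 at 0.17 ± 0.08 (adjusted p = 0.736). Both encode large subunit proteins specific to mitochondria. DESeq2 also called 0 of the 78. It called 66 genes higher and 33 lower, which is 0.15% and 0.075% of all 44016 genes in the table. Its shares are therefore not on the base of 22382 used for edgeR, which called 33 higher and 17 lower.

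In the S100A16 KD, H2O2 likewise gave 0 calls among the 78 by edgeR's quasi-likelihood test, where 0% of all genes were called higher and 0.0134% lower. The median was 0.08 (range -0.07 to 0.27), 68 genes were above 0 and 7 passed an unadjusted p of 0.05. DESeq2 called 0 of the 78, and 60 genes higher and 15 lower in all (0.136% and 0.0341% of the 44016 in the table). A fit to these 2 groups alone called 6 higher (2.29% of all genes higher and 1.6% lower). The smallest edgeR adjusted p in the KD was that of MRPL46, 0.602, at a log2 fold change of 0.17 ± 0.07. For the interaction of the KD with H2O2, edgeR called 0 of the 78, where 0.0179% of all genes were called higher and 0.076% lower. The median interaction was 0.02 and the smallest adjusted p 0.902, with 1 gene at an unadjusted p under 0.05. DESeq2 called 0 of the 78 for the interaction, and 11 genes higher and 27 lower in all (0.025% and 0.0613% of the 44016).

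In the untreated S100A16 KD, 64 of the 78 genes fell and 2 rose against untreated WT, where 24.8% of all genes were called lower and 27.6% higher. Their median log2 fold change was -0.49, against 0.06 for all genes. Library totals in place of TMM factors moved the median of all genes up by 0.23, to 0.29. On that scale 45 of the 78 were called lower and 3 higher, with a median of -0.26 (14.4% and 41.1% of all genes), so the direction of the median was the same under both scalings. Without the 3 libraries that stood apart, 71 fell and 2 rose (27.2% and 28.2% of all genes).

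Both genes that fell at least 2-fold encode large subunit proteins with a bacterial homologue. MRPL28 (chr16:367384-370527, minus strand) stood at 36.1, 39.7 and 36.6 CPM in untreated WT and at 15.6, 17.2 and 17.6 in the KD. The groups did not overlap, and the KD mean was 44.9% of WT (log2 fold change -1.16 ± 0.08, edgeR adjusted p = 1.1e-10). MRPL15, on the scale of CPM, was at 71, 82 and 75 in WT and at 38.3, 38.3 and 33.1 in the KD. Again every KD library lay below every WT library, at a log2 fold change of -1.06 ± 0.07 (edgeR adjusted p = 1.33e-10).

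Among small subunit genes, MRPS5 (chr2:95087207-95149434, minus strand) fell furthest. Its protein belongs to the conserved core of the small subunit, near the path of the incoming mRNA. It stood at 501, 500 and 499 CPM in untreated WT and at 258, 265 and 264 in the untreated S100A16 KD (log2 fold change -0.93 ± 0.08, edgeR adjusted p = 1.16e-09). The spread within each group was small beside the gap between them. MRPL48, MRPS2 and MRPL12 followed, at log2 fold changes of -0.93, -0.87 and -0.83. MRPL12 shares 68.2% of its exon bases with another annotated feature on the same strand, so its counts are uncertain.

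The 2 genes that rose in the untreated S100A16 KD were MRPL33 and MRPL49, both of the large subunit. MRPL33 (chr2:27771717-27988087, plus strand, as deposited) is the homologue of a small bacterial large subunit protein. It stood at 18.3, 19.2 and 16.7 CPM in untreated WT and at 43.5, 45.7 and 48.8 in the KD. The KD libraries were all higher, 2.55-fold in the mean (log2 fold change 1.35 ± 0.08, edgeR adjusted p = 4.8e-12). MRPL33 shares 21.1% of its exon bases with BRE on the same strand, and BRE, at 9.71 ± 0.67 CPM in WT and 8.21 ± 0.44 in the KD, moved the other way (edgeR adjusted p = 0.0413). MRPL49 (chr11:65122183-65127371) was at 28.5, 28.8 and 29.2 CPM in WT and at 33.7, 33.3 and 35.1 in the KD. Its groups did not overlap, at a log2 fold change of 0.24 ± 0.06 (edgeR adjusted p = 0.00294), and 12.2% of its exon bases are shared with genes on the opposite strand.

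**Figure D3:**
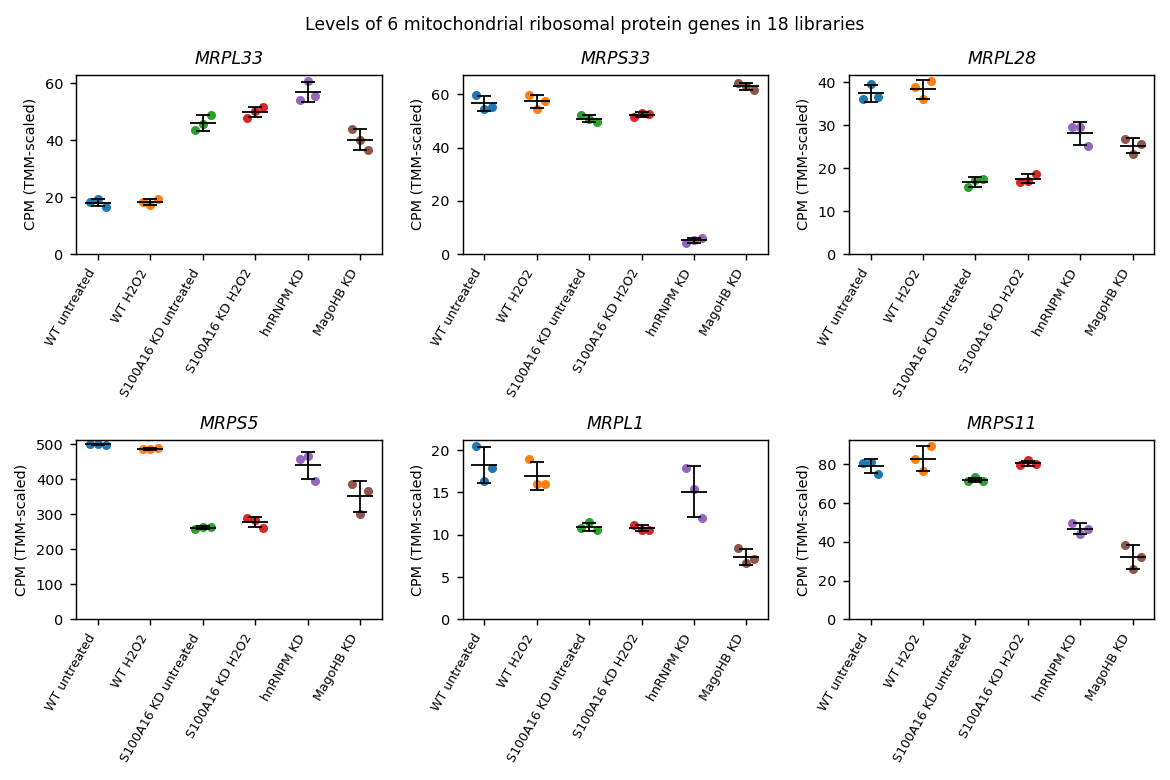
TMM-scaled CPM of 6 of the genes in each of the 18 libraries; points are libraries, bars are the mean and SD of 3. MRPL33 is at 16.7 to 19.4 in the 6 WT libraries and at 36.6 or more in the KDs, and MRPS33 is at 4.26 to 6.18 in the hnRNPM KD and at 49.6 or more elsewhere.

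Under H2O2, 67 of the 78 genes fell and 2 rose in the S100A16 KD against WT, where 24.7% of all genes were called lower and 27.9% higher. The median log2 fold change was -0.47. Library totals gave 50 lower and 2 higher (16.4% and 38.2% of all genes), with a median of -0.29. Leaving out the 3 libraries that stood apart gave 70 lower and 2 higher (28.3% and 30.3%). This comparison shares no library with the untreated one, and 63 genes fell in both, which is 98.4% of the 64 and 94% of the 67, where the 67 are 85.9% of the 78. MRPL33 and MRPL49 rose in both. MRPL33 was at 18.4, 17.1 and 19.4 CPM in WT under H2O2 and at 47.8, 50.2 and 51.6 in the treated KD. MRPL28 stood at 38.8, 36 and 40.3 CPM in treated WT and at 16.7, 17.1 and 18.7 in the treated KD (log2 fold change -1.13 ± 0.08, edgeR adjusted p = 1.51e-10). Neither gene's groups overlapped.

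The hnRNPM KD, the MagoHB KD and the untreated S100A16 KD were all compared with the same 3 untreated WT libraries, so their values are set side by side and no overlap between them is counted. In the hnRNPM KD, 59 of the 78 genes fell and 3 rose, where 23.8% of all genes were called lower and 25.4% higher. The median log2 fold change was -0.36, against 0.02 for all genes. Library totals gave 41 lower and 8 higher (18.4% and 31.5% of all genes), with a median of -0.25 beside 0.13 for all genes. Without the 3 libraries that stood apart, 54 fell and 5 rose (25.2% and 25.7% of all genes).

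MRPS33 (chr7:141002610-141015228, minus strand), which encodes a small subunit protein specific to mitochondria, fell far more than any other of the 78 in the hnRNPM KD. It stood at 59.9, 54.6 and 55.3 CPM in untreated WT and at 4.26, 5.32 and 6.18 in the hnRNPM KD, 9.29% of WT in the mean. The log2 fold change was -3.43 ± 0.09 (edgeR adjusted p = 1.76e-17), and it ran from -3.58 to -3.3 over the alternatives. In the untreated S100A16 KD it was at 52.2, 50.9 and 49.6 CPM (edgeR adjusted p = 0.0987) and in the MagoHB KD at 64.4, 63.2 and 61.7 (edgeR adjusted p = 0.0972). With library totals MRPS33 was called higher in the MagoHB KD, at 0.37 (edgeR adjusted p = 0.000612). Compared with each other, the hnRNPM KD was below the MagoHB KD by a log2 fold change of -3.59 ± 0.09 (edgeR adjusted p = 5.3e-18), and the S100A16 KD was 9.69-fold above the hnRNPM KD. No other gene shares its exon bases in the annotation, and 2 pseudogenes in the table carry its name.

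The next largest falls in the hnRNPM KD were in genes of the large subunit and in MRPS35. MRPL50 (chr9:101387633-101398614, minus strand), specific to mitochondria, was at 51.4, 48.2 and 51.1 CPM in WT and at 27.3, 22.6 and 23.7 in the hnRNPM KD. Its log2 fold change was -1.03 ± 0.08 (edgeR adjusted p = 3.18e-10), beside -0.30 in the untreated S100A16 KD and -0.41 in the MagoHB KD. Under library totals MRPL50 was no longer called in the S100A16 KD (edgeR adjusted p = 0.503). MRPS35, a small subunit protein specific to mitochondria, fell from 167 ± 4.5 to 90.4 ± 6.3 CPM, MRPL15 from 76 ± 5.6 to 41.5 ± 2.7 and MRPL48 from 55.5 ± 1.4 to 32 ± 2.7. MRPL18, whose bacterial homologue binds the small rRNA of the large subunit, fell from 35.5 ± 0.89 to 20.2 ± 2.3 CPM.

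The 3 genes that rose in the hnRNPM KD were MRPL33, MRPL34 and MRPL49. MRPL33 stood at 54.2, 60.8 and 55.3 CPM, 3.14-fold the WT mean (log2 fold change 1.65 ± 0.08, edgeR adjusted p = 1.5e-13), while BRE fell from 9.71 ± 0.67 to 6.43 ± 0.69. MRPL34, the homologue of a small bacterial large subunit protein, was at 9.87, 9.5 and 9.54 CPM in WT and at 13.4, 12.5 and 10.5 in the KD. Its log2 fold change of 0.33 ± 0.1 (edgeR adjusted p = 0.00851) lost its call without hnRNPM KD replicate 1 (edgeR adjusted p = 0.0682). MRPL49, at 0.21 ± 0.06 (edgeR adjusted p = 0.00783), also lost its call without that library (0.0716).

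In the MagoHB KD, 55 of the 78 genes fell and 1 rose, where 22.3% of all genes were called lower and 23.3% higher. The median log2 fold change was -0.32, against 0.04 for all genes. Library totals gave 34 lower and 5 higher (12.5% and 36.7% of all genes), with a median of -0.12 beside 0.25 for all genes. Leaving out the 3 libraries that stood apart gave 54 lower and 2 higher (22.7% and 22% of all genes). MRPL33 again was the gene that rose, at 43.8, 40.1 and 36.6 CPM against 18.3, 19.2 and 16.7 in WT (2.22-fold, edgeR adjusted p = 7.63e-11).

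The 3 genes that fell at least 2-fold in the MagoHB KD were MRPL1, MRPS11 and MRPL42. MRPL1 (chr4:77862520-77952790, plus strand), the homologue of the bacterial protein of the mobile L1 stalk, stood at 20.5, 16.3 and 17.9 CPM in WT and at 8.44, 6.61 and 7.12 in the KD. Its groups did not overlap (log2 fold change -1.30 ± 0.12, edgeR adjusted p = 2.42e-08), whereas in the hnRNPM KD, at 17.9, 15.4 and 12, they did (adjusted p = 0.0687). MRPL42 (chr12:93467488-93516213), specific to mitochondria, went from 34.9, 34 and 33.9 CPM to 18.3, 13.2 and 14.4, at a log2 fold change of -1.17 ± 0.09 (edgeR adjusted p = 1.66e-09). MRPL42 fell in the untreated S100A16 KD by 0.68 and in the hnRNPM KD by 0.45 on the log2 scale.

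MRPS11 (chr15:88467453-88480773, plus strand) encodes a conserved protein of the small subunit platform. It stood at 80.6, 81.3 and 74.9 CPM in untreated WT, 49.6, 43.9 and 46.8 in the hnRNPM KD and 38.5, 26.2 and 32.1 in the MagoHB KD. The log2 fold changes were -0.75 ± 0.09 (edgeR adjusted p = 7.66e-07) and -1.29 ± 0.09 (5.02e-10). In the untreated S100A16 KD it was at 71.4, 73.3 and 71.1 CPM and was not called (adjusted p = 0.229). Its opposite-strand neighbour MRPL46 stood at 56, 55 and 55 CPM in WT and at 55.8, 48.6 and 51.3 in the MagoHB KD. The groups overlapped (log2 fold change -0.09 ± 0.07, edgeR adjusted p = 0.259). In the hnRNPM KD, MRPL46 fell by 0.17 on the log2 scale (edgeR adjusted p = 0.0311), a call that held under 5 of 13 alternatives. With library totals its value in the MagoHB KD was 0.11, and no test compared the 2 neighbours with each other. Of MRPS11's exon bases, 9.17% are shared with a gene on the opposite strand.

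MRPS24, MRPS10 and MRPS18B were the next largest falls in the MagoHB KD, all in the small subunit. MRPS24, the homologue of a bacterial protein at the mRNA entry, went from 10.6 ± 0.57 to 5.85 ± 1.3 CPM (log2 fold change -0.86 ± 0.18, edgeR adjusted p = 0.000672). MRPS10 went from 66.5 ± 3 to 37.2 ± 2.8 CPM and MRPS18B, from 47.2 ± 1.2 to 27.7 ± 2.6.

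By subunit and origin, falls were called in all 4 structural classes in each KD, and the counts below stand beside 24.8%, 23.8% and 22.3% of all genes called lower in the S100A16, hnRNPM and MagoHB KDs. In the untreated S100A16 KD, 42 of 51 large subunit genes and 21 of 26 small subunit genes fell, with medians of -0.49 and -0.51. Of genes with a bacterial homologue, 39 of 46 fell (median -0.53), and of those specific to mitochondria 24 of 31 (median -0.36). In the hnRNPM KD, 37 of 51 and 21 of 26 genes of the large and small subunit fell, with medians of -0.32 and -0.42. In the MagoHB KD the counts were 33 of 51 and 21 of 26, with medians of -0.33 and -0.34. With library totals, 15 of the 31 mitochondria-specific genes were lower in the untreated S100A16 KD (median -0.12), beside 30 of the 46 with a bacterial homologue (median -0.29) and 14.4% of all genes. The order of those medians was the other way in the hnRNPM KD. There, 17 of the 31 mitochondria-specific genes were lower (median -0.34), beside 18.4% of all genes. Those with a bacterial homologue had 24 of 46 lower (median -0.22). In the MagoHB KD that scaling left 7 of 21 mitochondria-specific large subunit genes lower, with a median of -0.01, beside 12.5% of all genes. Differences between classes were not tested. MRPS36, the dehydrogenase component, fell in all 3 KDs, by 0.35, 0.36 and 0.32 on the log2 scale, and with library totals it was called in none of them. Of the 5 subunits with other symbols, 4 fell in the untreated S100A16 KD, PTCD3 from 111 to 72.7 CPM among them. In the hnRNPM KD 2 of the 5 fell and CHCHD1 rose (log2 fold change 0.39, edgeR adjusted p = 0.00149), whereas CHCHD1 fell from 26.3 to 15.7 CPM in the MagoHB KD (edgeR adjusted p = 1.65e-06).

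**Figure D4:**
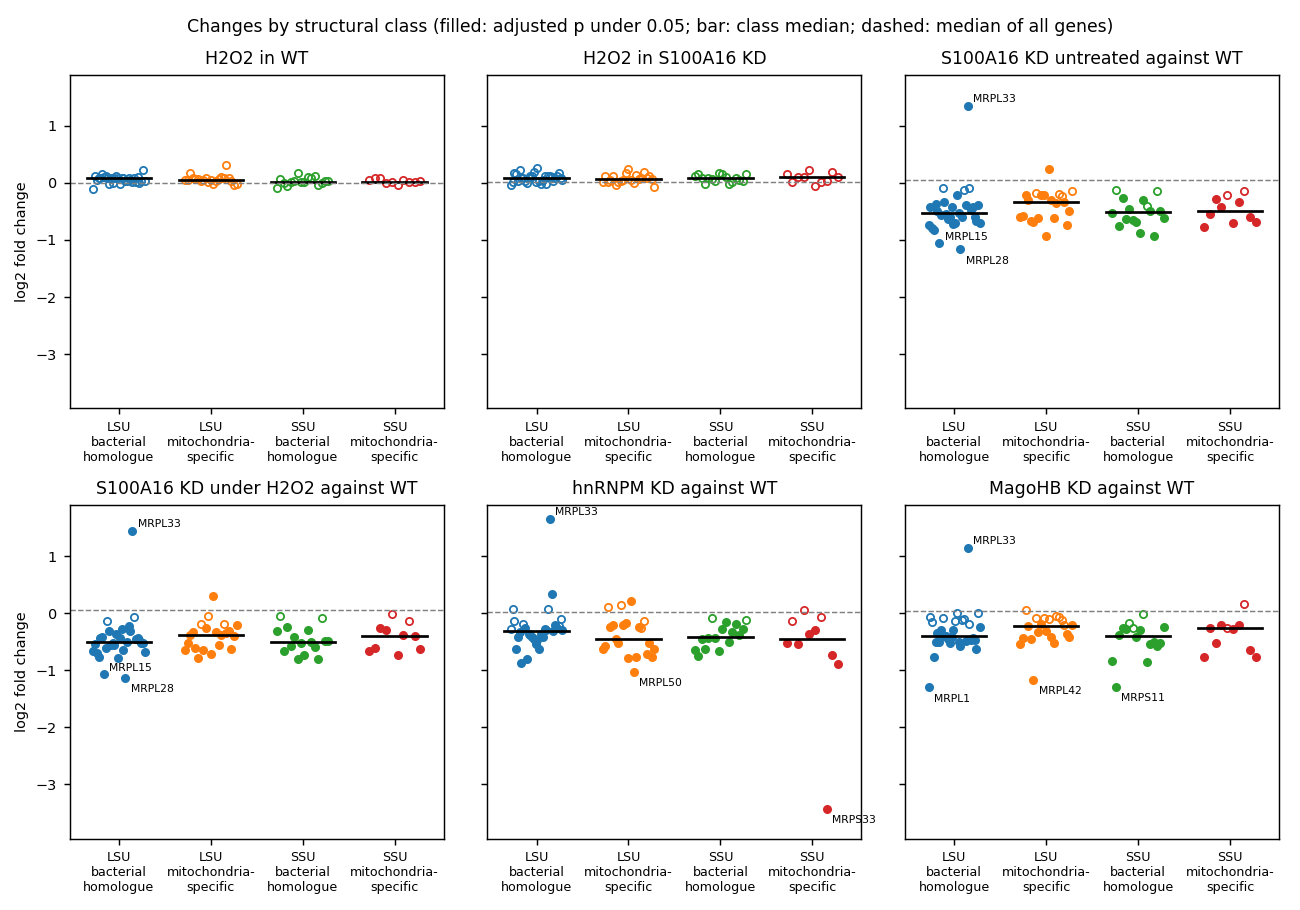
Log2 fold change of 77 genes by structural class (LSU, large subunit; SSU, small subunit) in 6 comparisons; filled points have an adjusted p under 0.05, bars are class medians and the dashed line is the median of all genes. Points lie near 0 for H2O2. For the KDs the medians of all 4 classes are below 0, and some points are above it. MRPL33 is the highest in each KD, and MRPS33 is far below the others in the hnRNPM KD.

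The KDs were also tested against each other. The S100A16 KD was lower than the hnRNPM KD in 32 of the 78 genes and higher in 15 (24.2% and 24.6% of all genes), with a median log2 fold change of -0.17. With library totals the counts were 20 and 19 (17.9% and 30.4%), and without the 3 libraries that stood apart 43 and 11 (26.3% and 25.3%). MRPL44, a mitochondria-specific protein of the large subunit, was among those lower in the S100A16 KD. It stood at 17.4, 16.6 and 19.1 CPM there and at 32.3, 33.4 and 24.6 in the hnRNPM KD (log2 fold change -0.76 ± 0.09, edgeR adjusted p = 4.76e-07). The S100A16 KD was lower than the MagoHB KD in 30 genes and higher in 9 (21.7% and 23.2% of all genes), with a median of -0.11. That median ran from -0.19 without MagoHB KD replicate 2 to -0.05 without MagoHB KD replicate 1, and without the 3 libraries that stood apart 43 genes were lower and 9 higher (24.1% and 24.5% of all genes). MRPS11 had the highest value in that comparison, at 1.16 ± 0.09 (edgeR adjusted p = 1.29e-09). The hnRNPM KD was lower than the MagoHB KD in 17 genes and higher in 17 (22.2% and 22.3% of all genes), with a median of -0.01. With library totals 27 were lower and 10 higher (27.7% and 17.8%). Both counts ranged from 11 to 26 when 1 library was left out: 26 were higher without hnRNPM KD replicate 3 and 11 without hnRNPM KD replicate 2, and 26 were lower without MagoHB KD replicate 2 and 11 without MagoHB KD replicate 1. The median ran from -0.09 to 0.06 over these fits. The shares of all genes called when 1 library was left out are not given, so those counts cannot be set beside them.

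Sharing no untreated WT library with the other KDs, the S100A16 KD under H2O2 can be set against them gene by gene. Of its 67 genes that fell, 52 also fell in the hnRNPM KD (77.6% of the 67 and 88.1% of the 59 there). Since the 67 are 85.9% of the 78 and the 59 are 75.6%, these shares are near those of all 78 genes. With the MagoHB KD it shared 53 (79.1% of the 67 and 96.4% of the 55, which are 70.5% of the 78). No gene was called in opposite directions in either pair. MRPL33 rose in all 3 of these comparisons.

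Genes that serve the mitoribosome were described from lists. Their counts in the untreated S100A16 KD stand beside 24.8% of all genes called lower and 27.6% higher. In the untreated S100A16 KD, 17 of 26 assembly factors fell and 3 rose, as did 10 and 0 of 16 translation factors and 14 and 0 of 20 genes for mitochondrial tRNA charging. Of 15 genes for mitochondrial transcription and RNA processing 11 fell, and of 8 tested regulators of mitochondrial biogenesis 6 fell. ERAL1, a GTPase that chaperones the small subunit rRNA, went from 36.6 ± 0.4 to 12.1 ± 0.21 CPM (log2 fold change -1.60, edgeR adjusted p = 2.29e-13). TUFM, the mitochondrial elongation factor Tu, went from 342 ± 6.6 to 189 ± 7.5 CPM, SLIRP, an RNA-binding partner of LRPPRC, from 250 ± 11 to 98 ± 5.2, and FARS2, the mitochondrial phenylalanyl-tRNA synthetase, from 4.76 ± 0.73 to 1.62 ± 0.19. With library totals the falls and rises were 8 and 5 for assembly factors, 6 and 4 for translation factors, 8 and 3 for tRNA charging, 6 and 1 for transcription and processing and 3 and 2 for the regulators, where 14.4% of all genes were lower and 41.1% higher.

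In the hnRNPM KD, 9 of 26 assembly factors fell and 4 rose, 10 of 16 translation factors fell and 1 rose, and 11 of 20 tRNA charging genes fell and 2 rose, beside 23.8% of all genes lower and 25.4% higher. LRPPRC, which stabilizes mitochondrial mRNAs, went from 344 ± 3.6 to 210 ± 18 CPM (edgeR adjusted p = 2.83e-07). With library totals, 7 assembly factors were called higher and 6 lower in that KD, 3 translation factors higher and 6 lower, and 2 tRNA charging genes higher and 9 lower (31.5% of all genes higher and 18.4% lower). That scaling gave 3 higher and 3 lower of the 15 genes for mitochondrial transcription and RNA processing. The regulators of mitochondrial biogenesis also had 3 higher and 3 lower. In the MagoHB KD, 10 assembly factors fell and 2 rose, 8 translation factors fell and 1 rose, and 5 tRNA charging genes fell and 6 rose, beside 22.3% of all genes lower and 23.3% higher. The tRNA charging counts of 20 were near those shares. TFAM, which packages mitochondrial DNA and starts its transcription, went from 63.5 ± 0.22 to 27.9 ± 4.8 CPM (log2 fold change -1.19, edgeR adjusted p = 4.88e-10). With library totals, the MagoHB KD had 9 assembly factors higher and 6 lower, 5 translation factors higher and 2 lower, and 9 tRNA charging genes higher and 3 lower, beside 36.7% of all genes higher and 12.5% lower. Of the transcription and RNA processing genes 3 were then higher and 6 lower (median 0.01), and of the regulators 4 were higher and 2 lower. The median of the assembly factors there changed sign with the scaling, from -0.06 to 0.15, while that of all genes moved from 0.04 to 0.25.

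RPUSD4, a pseudouridine synthase that acts on the large subunit rRNA, rose in each KD. It stood at 13.2 ± 1.4 CPM in untreated WT and at 24.9 ± 0.73 in the untreated S100A16 KD, 48.9 ± 3.4 in the hnRNPM KD, while the MagoHB KD had 34.5 ± 3.2. The log2 fold changes were 0.91, 1.88 and 1.38 (edgeR adjusted p = 6.62e-09, 6.5e-14 and 1.32e-11). GABPA, whose motif is marked in the promoters above, was called lower in all 3 KDs, at log2 fold changes of -0.40, -0.64 and -0.53. YY1 was called in none of them, at -0.08, 0.04 and 0.03 (edgeR adjusted p = 0.265, 0.554 and 0.668). In the untreated S100A16 KD, 23 of 30 genes with a GABPA match fell (median -0.52), and 23 of 27 genes with neither a GABPA nor a YY1 match fell (median -0.59). The order of these medians was the other way in the hnRNPM KD, at -0.40 (22 of 30 fell) and -0.30 (19 of 27). In the MagoHB KD they were -0.30 (19 of 30) and -0.29 (19 of 27), and the 21 genes with a YY1 match were at -0.50, -0.45 and -0.44 in the S100A16, hnRNPM and MagoHB KDs. No difference between these groups was tested. MRPS12, a conserved protein of the decoding region, holds both motifs and went from 25.2 ± 1.1 CPM in untreated WT to 15 ± 0.44 in the untreated S100A16 KD (log2 fold change -0.75, edgeR adjusted p = 2.81e-06). MRPL47, which also holds both, went from 44.5 ± 1.8 to 28 ± 1.4 CPM (-0.67, edgeR adjusted p = 9.72e-06). Both genes were picked by their fall in that KD, so these falls do not describe the genes holding both motifs.

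**Figure D5:**
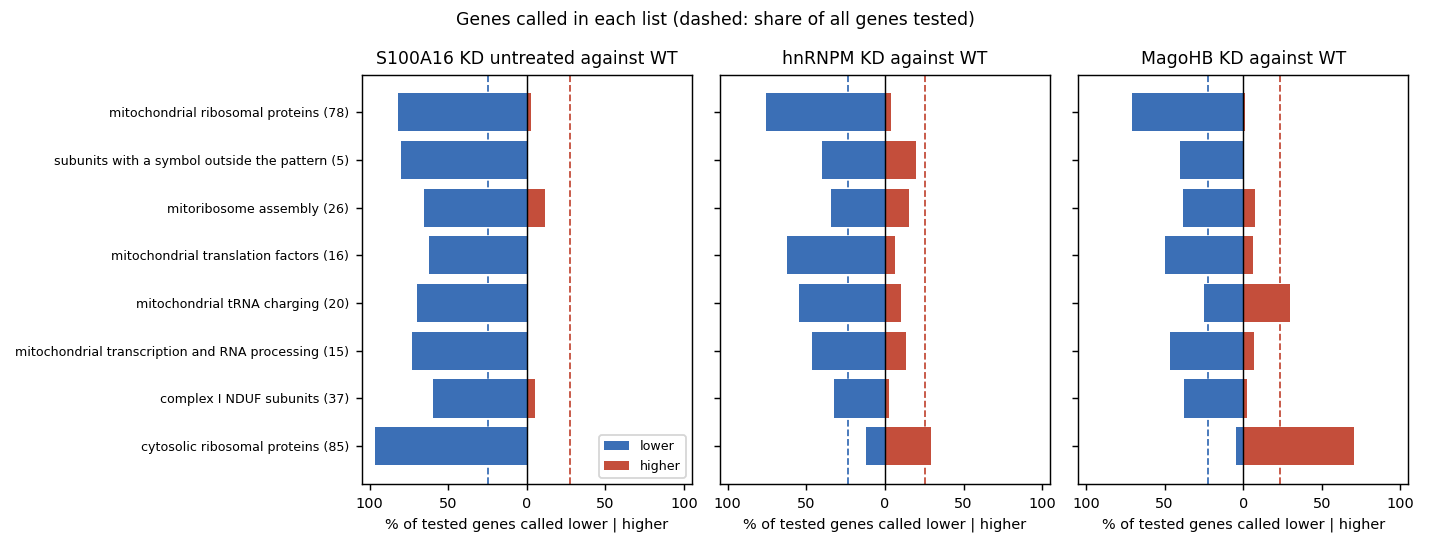
Share of the tested genes of each list called lower (left, blue) and higher (right, red) in 3 KDs against untreated WT, with the number tested in brackets and the share of all genes as dashed lines. The 78 genes are lower in most cases in each KD, whereas the cytosolic ribosomal proteins are lower in the S100A16 KD and mostly higher in the MagoHB KD.

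Values of 2 like groups of genes are set beside those of the 78. Of 85 tested genes for proteins of the cytosolic ribosome, 82 fell and 0 rose in the untreated S100A16 KD (median -0.57), beside 24.8% of all genes lower and 27.6% higher. In the hnRNPM KD 10 fell and 25 rose (median 0.05), where 25.4% of all genes were higher, so the share that rose was near that of all genes. For the MagoHB KD 4 fell and 60 rose (median 0.25), beside 22.3% of all genes lower and 23.3% higher. The mitochondrial set had medians of -0.36 and -0.32 in the hnRNPM and MagoHB KDs. With library totals these cytosolic medians were -0.33, 0.16 and 0.46 in that order of KDs. The counts were 71 lower and 0 higher, 4 lower and 48 higher, and 2 lower and 79 higher. Of all genes, 14.4%, 18.4% and 12.5% were then lower and 41.1%, 31.5% and 36.7% higher. Of 37 nuclear genes for respiratory complex I, 22 fell and 2 rose, 12 fell and 1 rose, and 14 fell and 1 rose in the same order of KDs. Beside them, 24.8%, 23.8% and 22.3% of all genes were lower and 27.6%, 25.4% and 23.3% higher. With library totals the complex I counts were 11 lower and 5 higher, 10 and 4, and 6 and 11. In the MagoHB KD more of them were then called higher than lower, which was also so for all genes (36.7% and 12.5%). The difference between the lists was not tested.

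The rRNA of the mitochondrial large subunit, MT-RNR2, is encoded by mitochondrial DNA and was read here in poly(A)-selected RNA. It stood at 27200 ± 1300 CPM in untreated WT and at 14800 ± 1300 in the untreated S100A16 KD, 23500 ± 760 in the hnRNPM KD, while the MagoHB KD had 17000 ± 380. The log2 fold changes were -0.88, -0.21 and -0.68 (edgeR adjusted p = 2.25e-10, 0.00893 and 1.66e-08). The small subunit rRNA, MT-RNR1, was far lower in these libraries, at 357 ± 12 CPM in untreated WT, and was not called in any of the 3. Its spread was wide in the untreated S100A16 KD, at 320 ± 200 CPM.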

How the data were processed

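RNA was measured in 18 poly(A)-selected libraries of A549 cells, in 6 groups of 3. The authors deposited whole-number counts per gene and RPKM values. The submitters' processing notes name HISAT2 2.2.1 and build GRCh38 (hg38), beside StringTie 2.1.4, SAMtools 1.15.1, DESeq2 1.32.0 and FastQC 0.11.9. The sources used here name no counting program and no strand setting. Genes that share exon bases or have near copies are therefore uncertain: 40 of the 78 share exon bases with another gene, 14 of them over 20%, and 28 have a pseudogene named after them in the table. The deposited RPKM equalled counts over exon length and total counts for 100% of 531539 values, within a relative tolerance of 0.001. Of counts from 1 to 19, odd values made up 18.6% to 22% in each library. An alternative with all counts halved was therefore added after seeing the data. Per-sample columns not used numbered 0.

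Groups came from the labels. Tests of counts used the robust quasi-likelihood F test of edgeR 4.0.16 in R 4.3.3, with TMM scaling, filterByExpr over the 6 groups and 1 mean per group over all 18 libraries. Benjamini-Hochberg adjustment ran over 22382 genes, with calls at an adjusted p under 0.05. Levels are TMM-scaled CPM, and SDs are over 3 libraries. The p-values measure the spread between libraries within groups, with 1 estimate per gene shared by the 6 groups. The labels name no separate lines of a KD, so the p-values do not cover a spread between lines. The script was checked on simulated data. Alternatives were library totals, DESeq2 1.42.0, no filter, the replicate block, only the groups compared, halved counts, 3 libraries left out together, and each library left out.

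The genes named with values are, per comparison, up to 6 called members with the highest and 6 with the lowest log2 fold change whose 3 libraries did not overlap. Also named are the 5 highest and 5 lowest by RPKM, the 4 most and 4 least variable, some of the members called one way in all 4 KD comparisons with WT, and up to 3 genes per pathway list by adjusted p. CHCHD1 and the other subunits with symbols outside the pattern, MRPL46 beside MRPS11, MRPL39 and MRPL54, and the rRNAs, BRE and YY1 were added after their values were seen. MRPL47 was added as a gene holding both promoter motifs with a low log2 fold change in the untreated S100A16 KD. The members and lists were chosen with earlier results of these data known.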

Additional observations from a re-analysis of the deposited data

How the results depend on the processing

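For the called members with the highest and lowest log2 fold changes (68 genes by comparison), 884 values were recomputed: 875 kept their direction and their side of the threshold, 9 lost the call and 0 reversed. The losses were in 4 results: MRPL34 and MRPL49 in the hnRNPM KD, MRPS24 between the S100A16 and MagoHB KDs, and MRPL57 between the hnRNPM and MagoHB KDs. Calls outside that set were also lost: MRPL46 in the hnRNPM KD held under 5 of 13 alternatives, and with library totals MRPL50 in the untreated S100A16 KD and MRPS36 in all 3 untreated KDs were not called. Under all 13 alternatives, 47 of 66 calls held in the untreated S100A16 KD, 52 of 69 in that KD under H2O2, 42 of 62 in the hnRNPM KD, while the MagoHB KD had 35 of 56.

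With library totals, 8 genes were called higher in the hnRNPM KD (31.5% of all genes). In the MagoHB KD 5 were higher and 34 lower (36.7% and 12.5% of all genes). The same scaling gave 20 lower in the S100A16 against the hnRNPM KD (17.9% of all genes), and 10 higher and 27 lower in the hnRNPM against the MagoHB KD (17.8% and 27.7% of all genes). A fit to only the groups compared gave 6 higher for H2O2 in the S100A16 KD (2.29% of all genes). It gave 8 higher and 10 lower in the hnRNPM against the MagoHB KD (17.2% and 15.8% of all genes). Without the 3 libraries that stood apart, the genes called higher were 4 for H2O2 in the S100A16 KD, 5 in the hnRNPM KD, while the MagoHB KD had 2. The cause of these changes was not tested.

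Leaving out each library in turn gave 1 to 4 higher in the hnRNPM KD (1 without hnRNPM KD replicate 1). In the hnRNPM against the MagoHB KD it gave 11 to 26 higher (26 without hnRNPM KD replicate 3, 11 without hnRNPM KD replicate 2). The range of lower calls there was also 11 to 26 (26 without MagoHB KD replicate 2, 11 without MagoHB KD replicate 1). Genes called lower against WT ranged from 61 to 63 (untreated S100A16 KD), from 46 to 61 (hnRNPM KD) and from 44 to 58 (MagoHB KD). The shares of all genes called in these fits are not given. These ranges therefore do not tell a change in the members from one in all genes.

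Libraries with the same replicate number did not deviate together: the correlations of their deviations ran from -0.175 to 0.24, with 1 of 27 above 0.1. With the replicate block, 64 genes fell and 2 rose in the untreated S100A16 KD, 58 and 3 in the hnRNPM KD, and 55 and 1 in the MagoHB KD. Of all genes, 24.4%, 23.6% and 22% were then lower and 27.2%, 24.9% and 22.6% higher. Halved counts gave 64 and 2, 59 and 3, and 55 and 1. There 28%, 26.6% and 25.1% of all genes were lower and 30.8%, 28.1% and 26.4% higher.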
